A study of Arabidopsis thaliana with 8 samples.

Results

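A set of 97 array probes, of 43603 on the array, had a lower signal after abscisic acid (ABA) in both plant lines of the study and differed by less than 2-fold between the lines. The probes were chosen by 4 differences and 1 level. A level is the log2 signal of a probe minus the 75th percentile of its array, averaged over the 2 arrays of a group. A chosen probe had a log2 difference of -1 or less, that is 2-fold lower or more, in the empty vector line (ABA minus control) and in the ANAC096 line (ANAC096+ABA minus ANAC096). It also differed by less than 2-fold (within 1 on the log2 scale) between ANAC096 and control and between ANAC096+ABA and ABA, and its control level was at least -6. These same values are described below, so none of them is a test of the set, and no p-value is given for it.

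All plants were Arabidopsis thaliana seedlings of the Columbia accession (Col-0), 12 days old, grown in liquid medium, and total RNA of whole seedlings was hybridised to 8 one-colour Agilent arrays. The groups of 2 arrays were ANAC096+ABA (pTA-ANAC096 plants, 30 µM dexamethasone for 1 h with 2 µM ABA in the last 30 min), ANAC096 (pTA-ANAC096 plants, dexamethasone alone for 1 h), ABA (empty pTA vector plants, dexamethasone with ABA in the last 30 min) and control (empty pTA vector plants, dexamethasone alone for 1 h). Every group therefore carried a pTA vector and received dexamethasone, the steroid that switches on transgenes in pTA vectors, and no group lacked either. How many independent transgenic lines or seedlings stood behind an array is not given in the sources used here. All 8 arrays lay on 1 slide, with the arrays given ABA in one row and the others in the other row, and with the lines in different columns. Slide row therefore cannot be told apart from ABA, nor slide column from the line. The ABA comparisons of the lines share no arrays with each other, but each shares its arrays with the line comparisons.

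ABA is a hormone that plants make when water is short. Its receptors, the PYR/PYL/RCAR proteins, bind the hormone and then inhibit PP2C phosphatases, which frees SnRK2 kinases to phosphorylate bZIP transcription factors of the ABF/AREB group. These factors raise many stress genes through ABA-responsive promoter elements, while other transcripts, among them genes of growth, are known to be lowered by the hormone. ANAC096 belongs to the plant-specific NAC family of transcription factors, several of which act in dehydration responses. The question for the 97 probes is how far their ABA response was shared between plants with and without the ANAC096 construct.

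The scanner files identify a probe by the array maker's number and pair none of the 43603 numbers with a gene, and 0 of them appear in the reference gene table. The 97 probes are therefore described by their signals, with their roles, sequences and positions in the genome left unnamed, and 2 of them are given by number under a rule stated with the processing. For the same reason neither the induction of ANAC096 nor ABA marker genes could be checked against the group names.

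The set was reached in steps. Of 31087 probes with a control level of at least -6, 554 were 2-fold lower or more in ABA than in control, and 1091 were so in ANAC096+ABA against ANAC096. The 34714 probes tested across the array are another set, taken whatever their control level. Of these, 765 (2.2%) and 1578 (4.55%) were 2-fold lower or more in the same comparisons. Among the 31087, both differences held for 207 probes. Among these, ANAC096 was below control by 2-fold or more for 53 and above it for 22, which left 132. A further 35 were at least 2-fold lower in ANAC096+ABA than in ABA and 0 were at least 2-fold higher, which left the 97. They are 17.5% of the probes lowered 2-fold in the empty vector line and 8.89% of those lowered 2-fold in the ANAC096 line. The same rule with the ABA signs turned chose 81 probes raised in both lines.

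Members near the limits differed little from probes just beyond them. The members closest to the ABA limit had log2 differences of -1.01 in the empty vector line and -1.01 in the ANAC096 line, and the nearest probes that missed it had -0.9995 and -0.9978. For the line limit, the nearest member and non-member had differences of -0.998 and -1.03 without ABA, and -0.983 and -1.02 with ABA. For the control level they were -5.99 and -6.07. Within 0.1 of the ABA limit lay 14 members in the empty vector line and 11 in the ANAC096 line. Another 249 probes failed only the limit for ABA against control, 164 only that for ANAC096+ABA against ANAC096, and 75 only the control level.

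Most of the 97 probes were dimmer than the typical probe. Their median level was -4.70 in ANAC096+ABA, -3.00 in ANAC096, -4.33 in ABA and -2.91 in control. All 31087 probes with a control level of at least -6 had medians of -0.95, -0.95, -0.96 and -0.93 in the same groups. The control levels of the members spanned -5.99 to 3.07. Only 16 members lay at or above the 75th percentile of the array in control, and 30 lay below -4. In the units of the scanner, the median processed signal of the members was 306 and 349 on the ABA arrays, against 1156 and 970 on the control arrays. It was 263 and 312 on the ANAC096+ABA arrays, against 713 and 804 on the ANAC096 arrays. The medians of the 4 arrays with ABA thus lay below those of all 4 arrays without it. In whole seedlings, less RNA of a transcript per cell and fewer cells that hold it cannot be told apart.

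The ABA difference was near the limit for most members and large for a few. Of the 77 members well above background on all 8 arrays, 42 were under 3-fold lower in both lines. In the empty vector line the members were lower in ABA than in control by a median of 2.50-fold (log2 difference -1.32, quartiles -1.65 and -1.17). In the ANAC096 line they were lower in ANAC096+ABA than in ANAC096 by a median of 2.70-fold (log2 difference -1.43, quartiles -1.64 and -1.25). Over all 34714 tested probes the median differences were -0.07 and -0.01. Among the 83 members well above background on all 4 arrays of the empty vector line, 62 were 2-fold to under 3-fold lower, 15 were 3-fold to under 4-fold lower, 5 were 4-fold to under 8-fold lower and 1 at least 8-fold lower. Among the 78 members measured so in the ANAC096 line the counts were 55, 14, 8 and 1. At least 4-fold lower in both lines were 2 of the 77 members measured on all 8 arrays, while 4 passed 4-fold in the empty vector line alone and 7 in the ANAC096 line alone. Of all tested probes, 0.242% were 4-fold lower or more in ABA than in control, and 1.22% in ANAC096+ABA than in ANAC096.

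The probe A_84_P130356 had the lowest mean of both ABA differences among members measured on all 8 arrays. Its processed signal was 125 and 143 on the ABA arrays, against 1870 and 1399 on the control arrays. In the ANAC096 line it was 142 and 181 on the ANAC096+ABA arrays, against 1897 and 2704 on the ANAC096 arrays. All 4 arrays with ABA lay far below all 4 without, and the ABA arrays of the lines were close to each other. On the level scale the probe was at -5.63 ± 0.02 in ABA and -2.28 ± 0.19 in control (SD, n = 2), a 10.2-fold difference. It was at -5.51 ± 0.10 in ANAC096+ABA and -1.40 ± 0.14 in ANAC096 (SD, n = 2), a 17.3-fold difference. The log2 differences were -3.36 and -4.11 (SE 0.11 each). The probe was 0.88 higher in ANAC096 than in control and 0.12 higher in ANAC096+ABA than in ABA on the log2 scale (SE 0.11 each). Scaled to the spike-in RNA described below, these line differences were 0.26 and 0.48, where the medians of all tested probes were -0.66 and 0.34 in place of -0.04 and -0.02.

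The probe A_84_P277930 was the next among members measured on every array with separate groups. Its processed signal was 375 and 409 on the ABA arrays, against 2167 and 2049 on the control arrays. It was 276 and 349 on the ANAC096+ABA arrays, against 1739 and 2185 on the ANAC096 arrays. Its levels were -4.08 ± 0.02 in ABA and -1.89 ± 0.05 in control, 4.56-fold lower, and -4.56 ± 0.09 in ANAC096+ABA and -1.62 ± 0.01 in ANAC096, 7.70-fold lower (SD, n = 2). The log2 differences were -2.19 and -2.94 (SE 0.06 each). The array values of the groups did not overlap in either line, which the naming of the probe required. The line differences of this probe were 0.28 without ABA and -0.48 with ABA on the log2 scale (SE 0.06 each). With spike-in scaling, which shifts every probe alike within a comparison, they were -0.34 and -0.12.

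The brightest member shows the same pattern far above background. Its processed signal was 16785 and 18828 on the ABA arrays, against 67874 and 63595 on the control arrays. It was 18421 and 20739 on the ANAC096+ABA arrays, against 33708 and 43709 on the ANAC096 arrays. The probe was 3.13-fold lower in ABA than in control and 2.41-fold lower in ANAC096+ABA than in ANAC096, and its levels with ABA, 1.42 in ANAC096+ABA and 1.42 in ABA, were nearly equal.

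When the members were ordered by control level, the dimmest 32 had a median log2 difference of -1.45 between ANAC096+ABA and ANAC096, the middle 33 -1.47 and the brightest 32 -1.36, in a difference that the rule held at -1 or less. The spread between the arrays of a group, averaged over the groups of each probe, had a median SD of 0.17 among the dimmest, 0.07 in the middle and 0.05 among the brightest members. The lowest ABA differences among the brightest 32 were -2.01 in the empty vector line and -2.17 in the ANAC096 line.

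Some members were too dim with ABA for a full measurement. On all 8 arrays 77 members were well above background, and 20 missed this on at least 1 array. On no array were 13 members well above background in ANAC096+ABA, and 7 in ABA, while 0 members were so in ANAC096 or in control. For the 7 probes in the empty vector line the difference has only a bound, taken on each ABA array from the higher of the probe's own level and the lowest level among probes well above background. By it they were at least 2.45-fold to at least 4.88-fold lower, and 2 of the 7, the one with the lowest bound among them, were well above background on only 1 control array. The 13 in the ANAC096 line were at least 1.76-fold to at least 10.8-fold lower, and 11 of them at least 2-fold lower by such a bound, 4 at least 4-fold and 1 at least 8-fold lower. Arrays with ABA had a higher negative-control signal, with medians of 9.78 to 11.7 against 5.89 to 7.47 without ABA, and fewer probes well above background, 75.6% to 76.6% against 78.5% to 80.2%. The part of these array differences in the counts of dim members was not tested. The 77 members measured on every array had median log2 differences of -1.30 in the empty vector line and -1.38 in the ANAC096 line, against -1.32 and -1.43 for all 97.

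Replicate arrays lay close together for most members. The median SD between the 2 arrays was 0.080 in ANAC096+ABA, 0.062 in ANAC096, 0.057 in ABA and 0.065 in control. Over all probes with a control level of at least -6 it was 0.042, 0.045, 0.030 and 0.064 in the same order. The ABA differences of the members had medians of more than 1 in size, as the rule required. Both ABA arrays lay below both control arrays for 96 of the 97 members, as for 47.6% of all tested probes. Both ANAC096+ABA arrays lay below both ANAC096 arrays for all 97, as for 39.1% of all tested probes. All 4 arrays with ABA lay below all 4 without for 94 members, as for 11.5% of all tested probes. Since the choice of the members used these differences, nothing is read from these counts.

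A few members rest on 1 array of a group. The arrays of a group were more than 2-fold apart for 4 members in control, for 4 in ANAC096, for 1 in ABA and for 0 in ANAC096+ABA. The clearest case had processed signals of 19.3 and 18.9 on the ABA arrays, against 45.9 and 647 on the control arrays. It had 20.4 and 19.4 on the ANAC096+ABA arrays, against 805 and 35.5 on the ANAC096 arrays. A high signal was thus present on 1 control array and on 1 ANAC096 array only. It is the 1 member that was not well above background on both arrays of any group, so it was not tested with the other 96.

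Across all 34714 tested probes, limma called 29.4% lower in ABA than in control and 22.9% lower in ANAC096+ABA than in ANAC096, at an adjusted p under 0.05. Of the 97 members, 92 were called lower in the empty vector line and 93 in the ANAC096 line. Both counts follow from a choice made on the same differences. Among the 96 tested members, 4 were not called in the empty vector line and 3 in the ANAC096 line.

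Choosing probes on 1 array per group leaves the other arrays, on the same slide, for a second measurement. The rule applied to the replicate 1 arrays alone chose 98 probes. On the replicate 2 arrays, 83 of these were 2-fold lower or more in ABA than in control, and 85 in ANAC096+ABA than in ANAC096. Of all probes with a control level of at least -6, 1.8% and 3.53% were so on the same arrays. The median log2 differences of the 98 were -1.27 and -1.36 on the replicate 2 arrays and -1.32 and -1.43 on the arrays that chose them. The rule applied to the replicate 2 arrays chose 106 probes, of which 84 and 90 were at least 2-fold lower on the replicate 1 arrays, where the shares of all such probes were 1.83% and 3.76%. For both replicates the arrays with ABA lay in the same slide row, so the second measurement cannot tell ABA apart from slide row either. Some chosen probes were higher with ABA on the other arrays. The highest log2 differences were 1.56 in the empty vector line and 0.49 in the ANAC096 line on the replicate 2 arrays, and 1.01 and 0.61 on the replicate 1 arrays. With 1 array per group on each side these counts carry no test.

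Members printed more than once were also compared spot by spot within an array. Of the 97, 33 had 2 spots and 64 had 1 spot. The 2 spots of a member differed by a median of 0.11 on the log2 scale, and by a mean of 1.33 for the member with the highest such mean. Both spots gave an ABA difference of at most -1 in the empty vector line for 31 of the 33, in the ANAC096 line for 30 and in both for 28. The highest single-spot differences were -0.24 in the empty vector line and -0.94 in the ANAC096 line, so both spots were below 0 for all 33. The rule used the mean of these same spots, so nothing is read from these counts. The 130 spots of the members were spread over the array, with 28 to 37 of them in each of 4 equal sections.

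The line differences of the members were limited to less than 2-fold by the choice, and their signs within that limit are described here. Without ABA, 59 were lower and 38 higher in ANAC096 than in control, with a median log2 difference of -0.26. With ABA, 72 were lower and 25 higher in ANAC096+ABA than in ABA, with a median of -0.46. Over all tested probes the medians were -0.04 and -0.02, and 54.2% and 52.9% lay below 0. Of the members, 60.8% lay below 0 without ABA and 74.2% with ABA. The rule used these same differences, so nothing is read from these counts. Lower in the ANAC096 line under both conditions were 53 members, by a median of -0.66 without ABA and -0.61 with ABA. Another 19 were higher under both, by medians of 0.52 and 0.43. A further 19 were higher in ANAC096 than in control but lower in ANAC096+ABA than in ABA, and 6 the other way round. Differences within 0.5 in both conditions were found for 28 members, which are the closest to an equal level in the lines. As a consequence, the lowest group mean was that of ANAC096+ABA for 72 members and that of ABA for 25, and the highest was that of control for 59 and that of ANAC096 for 38.

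Of all tested probes, 59.5% were called in either direction by limma between ANAC096 and control, at an adjusted p under 0.05, and 44.6% between ANAC096+ABA and ABA. Of the members, 66 were called without ABA, 46 lower and 20 higher in the ANAC096 line, where all tested probes had 33.0% lower and 26.4% higher. With ABA 69 were called, 57 lower and 12 higher, where all tested probes had 22.4% lower and 22.2% higher. A difference between the lines was thus called for many members, as for many of all tested probes. Equal levels in the lines are not shown for members that were not called. Every plant had dexamethasone, so line differences that precede the induction of ANAC096 cannot be told apart from those that follow it.

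The calls between the lines depended on the scale, and scaling to spike-in RNA adds the same amount to every probe within a comparison. Spiked-in E1A control RNA, which Agilent labelling generally adds in equal amounts to each sample, had mean levels of -0.07 ± 0.17 in ANAC096+ABA, 0.64 ± 0.09 in ANAC096, 0.29 ± 0.05 in ABA and 0.02 ± 0.01 in control (SD, n = 2). Scaling the arrays to it gave a median over all tested probes of -0.34 for ABA against control, 0.71 for ANAC096+ABA against ANAC096, -0.66 for ANAC096 against control and 0.34 for ANAC096+ABA against ABA. On that scale the members had a median difference of -1.59 between ABA and control and of -0.72 between ANAC096+ABA and ANAC096. Since every probe shifts alike, both stayed further down than the median of all probes, as the choice had made them. All 96 tested members were below 0 in both lines. This too follows from the choice at -1 or less, since the scaling moved neither ABA difference by as much as 1. Of the 96, 95 and 87 were called lower, where 47.2% and 3.82% of all tested probes were called lower. Without ABA 76 members were called lower and 0 higher in ANAC096 than in control, where 74.4% of all tested probes were called lower and 7.43% higher. With ABA 17 were called lower and 24 higher in ANAC096+ABA than in ABA, where 5.57% of all tested probes were called lower and 46.2% higher. By sign, 55 of the 96 were below 0 and 41 above it in that comparison, with a median of -0.11 against 0.34 over all tested probes.

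The ABA difference itself was compared between the lines. The interaction, that is the ABA difference in the ANAC096 line minus that in the empty vector line, had a median of -0.09 and ranged from -1.61 to 1.42 over the members. On the 75th percentile scale the ABA difference was further down in the ANAC096 line for 60 members and in the empty vector line for 37. For 70 members the ABA differences were within 0.5 of each other, and for 7 they were at least 1 apart, 6 of these with the lower value in the ANAC096 line. Limma called the interaction for 39 members, 24 with a lower and 15 with a higher value, where 42.6% of all tested probes were called in either direction, 18.8% lower and 23.9% higher. With quantile normalization the median interaction of the members was 0.02, and in the authors' deposited table it was 0.05, so its sign was not fixed. With spike-in scaling 1 member was called lower and 74 higher, where 3.23% of all tested probes were called lower and 83.0% higher. On that scale the median interaction was 0.90 over the members and 1.04 over all tested probes. The interaction is made of the differences that chose the members, which hold it between -2 and 2.

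Members at both ends of this range show what such a difference looks like. The member with the highest interaction had processed signals of 57.8 and 58.9 on the ABA arrays, against 510 and 453 on the control arrays, a 6.98-fold difference. It had 96.2 and 103 on the ANAC096+ABA arrays, against 217 and 206 on the ANAC096 arrays, a 2.61-fold difference. Its signal was thus lower without ABA and higher with ABA in the ANAC096 line. Among members measured on all 8 arrays, the one with the lowest interaction, -1.43, had 431 and 445 on the ABA arrays, against 1299 and 1037 on the control arrays, a 2.25-fold difference. It had 317 and 365 on the ANAC096+ABA arrays, against 1539 and 1826 on the ANAC096 arrays, a 6.04-fold difference.

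The number of probes that met the rule also moved with the processing. With normexp background correction 63 probes met the rule, 52 of them among the 97, and 59 did so in the authors' deposited table, 53 of them among the 97. With spike-in scaling 51 probes met it, 19 of them among the 97. At a limit of -0.8 for both ABA differences 174 probes met it, the 97 among them. At a limit of -1.5 for both ABA differences 18 probes remained, with median differences of -2.08 in the empty vector line and -1.84 in the ANAC096 line.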

How the data were processed

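Members, lists and settings were chosen with earlier results of these data known. The deposited scanner files hold the intensity of each spot, not log transformed. Feature Extraction 10.7.1.1 made them for array design 031025 under protocol GE1_107_Sep09, from 1 slide and 1 scan, per the file headers. A further deposited table holds log2 values of the authors, which correlated with the log2 median signal of each array at 0.9998 or more and whose column medians were 10.26 to 10.27. Other deposited columns used are flags, 0 or 1, for spots above background, saturated or outlying.

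Log2 of the processed signal minus the 75th percentile of each array, over 61657 spots without control spots, was averaged per probe. Spots flagged as outliers (1 to 12 per array) were kept, as the rule does. On each array 32963 to 34960 probes were well above background, the 75th percentile was 5349 to 8265, and 0 spots were saturated. Tested were the 34714 probes for which at least 1 group was well above background on both of its arrays, in a limma fit (3.58.1, R 4.3.3) over all 8 arrays, with Benjamini-Hochberg adjustment at 0.05, after a check on simulated data. The number of arrays limits the precision, and p-values measure the spread between 2 samples per group that the design text calls biological replicates. An exact permutation test of 2 against 2 cannot go below 0.33.

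Named were the 2 members with the lowest mean ABA difference among those above background on all 8 arrays with separate groups. Gene lists were not analysed here, since no probe could be paired with a gene. Alternatives were normexp (offset 50, on median signals, as the files used hold no mean signal), quantile and spike-in normalization (7 E1A probes), the authors' table, filters, outlier spots, other limits, a replicate block and leaving out each array. For other scales the control limit of -6 was kept on the main scale.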

Additional observations from a re-analysis of the deposited data

Results flagged for a closer look

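The ABA difference was called different between the lines by limma for 39 of the 97 members, where 42.6% of all tested probes were called. Both named members are among them, and because the interaction is built from the values that chose the members, it is a description here. The interaction of A_84_P130356 was -0.76 (SE 0.16), and 0.22 with spike-in scaling. That of A_84_P277930 was -0.76 (SE 0.08), and 0.22 with spike-in scaling. Spike-in scaling adds the same amount to the interaction of every probe, and its median over all tested probes was 0.06 on the 75th percentile scale and 1.04 with spike-in scaling. Both probes lay below that median on the 75th percentile scale, and therefore, by the equal shift, with spike-in scaling.

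Signals outside the probe comparisons also differed between groups. The negative-control spots had a mean level of -9.38 ± 0.15 in ABA and -10.2 ± 0.04 in control (log2 relative to the 75th percentile, SD, n = 2). The E1A spike-ins had a mean level of 0.29 ± 0.05 in ABA and 0.02 ± 0.01 in control (SD, n = 2). In the ANAC096 line their order was the other way, with -0.07 ± 0.17 in ANAC096+ABA and 0.64 ± 0.09 in ANAC096 (SD, n = 2). No test was run on either.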

How the results depend on the processing

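The number of probes that met the rule, 97, became 63 with normexp correction, 51 with spike-in scaling, 59 in the authors' table, 18 at a limit of -1.5, 174 at -0.8 and 28 with line differences within 0.5. Leaving out 1 array gave 92 to 100. The median ABA difference in the empty vector line, -1.32, became -1.07 with normexp correction, -1.59 with spike-in scaling and -1.14 in the authors' table, and -1.335 to -1.315 without 1 array. In the ANAC096 line it was -1.43, and -1.19, -0.72 and -1.15 in the same settings, -1.30 with quantile normalization and -1.44 to -1.40 without 1 array. Under spike-in scaling the interaction was called for 75 members, where 83.0% of all tested probes were called higher and 3.23% lower. On that scale the line was called for 41 members with ABA, where 46.2% of all tested probes were called higher and 5.57% lower. Counts of calls without 1 array are not given, since a group then held only 1 array.

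For A_84_P130356 the difference between ANAC096+ABA and ABA was -0.058 with normexp correction, and its interaction was 0.22 with spike-in scaling. For A_84_P277930 the difference between ANAC096 and control was -0.34 and the interaction 0.22 with spike-in scaling, where the medians of all tested probes were -0.66 and 1.04. The spike-in values differ from the others by the same amount for all probes of a comparison, and the cause of the normexp value was not tested.

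The replicate numbers did not pair the arrays: deviations correlated at -0.08 to 0.06 between groups. With a replicate block 92 and 94 members were called lower with ABA in the empty vector and ANAC096 lines, and 38 for the interaction, 66 for the line without ABA and 66 with ABA. Near the background the bounds limit what can be said of 13 members in the ANAC096 line and 7 in the empty vector line.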
